A study of Mus musculus with 4 samples.

Results

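Expression of 30 cholesterol and fatty acid synthesis genes was measured in 4T1Ch9 tumors of mice given vehicle or MEKi. The 30 genes are enzymes, regulators and sterol carriers of the sterol regulatory element-binding protein (SREBP) pathway, and they were taken from a list of its best-known members. A gene was measured where a probe set carried its symbol and no other in the array annotation, and its brightest probe set by mean over all arrays represented it. By this rule 26 of the 30 genes were measured, out of 17097 genes in all. The regulator Srebf1, the thiolase Acat2, the phosphomevalonate kinase Pmvk and the desaturase Scd2 were not analysed here.

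4T1Ch9 is a cherry-tagged mouse triple negative breast cancer (TNBC) line of Balb/c background. Female wild-type Balb/c mice of 6 to 8 weeks received 50000 cells in the mammary fat pad, and the tumors grew for 10 days before treatment. One group was then dosed each day with trametinib (MEKi), which blocks the kinases MEK1 and MEK2, for 7 days at 1 mg/kg. The other was given the carrier solution (vehicle) over the same 7 days. Total RNA of whole tumors was hybridised to Affymetrix mouse arrays, 2 labelled MEKi and 2 labelled vehicle, and no source used here states whether arrays of 1 label stem from different mice. The p-values below therefore cover only how these arrays scatter, which may not be how mice differ.

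Cells make cholesterol from acetyl-CoA through mevalonate, squalene and lanosterol, and make fatty acids from acetyl-CoA and malonyl-CoA with reducing power from NADPH. SREBP transcription factors are held in the endoplasmic reticulum when sterols are plentiful and travel to the Golgi for cleavage when sterols run low, after which they turn on the genes of both routes. Growing tumor cells, macrophages and fat cells use these routes to different extents, and fat cells of the mammary fat pad are especially rich in the fatty acid enzymes.

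Values are log2 expression after robust multi-array averaging (RMA), so that a difference of 1 is a doubling. The 25th percentile of each array lay between 3.85 and 3.88, and values close to it are near the floor of the array. Arrays with the same label were not the most alike. Across all tested probe sets Pearson's r was 0.992 for MEKi 1 with vehicle 2 and 0.978 for MEKi 2 with vehicle 1, against 0.927 for the arrays labelled MEKi and 0.959 for those labelled vehicle. The median of 13 genes induced by MAPK signaling, the pathway that the drug blocks, was 7.89 and 9.75 in the arrays labelled MEKi 1 and 2 and 9.36 and 8.41 in those labelled vehicle 1 and 2. It was thus lowest in one array labelled MEKi and highest in the other. The value of MEKi 2 goes against its label, and that of MEKi 1 does not. The arrays also differed in lymphocyte genes, given below with Srebf2, and the part of these in the MAPK medians was not tested. Whether the labels are right cannot be told from the sources used here. MEKi and vehicle below therefore mean the library labelled so, and a direction between them holds for the labels only.

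Most promoters of the genes hold a sequence feature that their selection did not use. RefSeq windows from 250 bases before to 50 bases after the start site (mouse build GRCm38.p6) were found for 25 of the 30 genes, 31 windows in all (Fdft1, Fdps, Scd2, Sqle and Stard4 were not matched). The CCAAT box, the letters CCAAT on either strand (ATTGG on the other), which binds nuclear factor Y, occurred in 23 of the 31 windows (74.2%) and in 22 of the 25 genes, against 37.4% of 32851 windows of all genes. The E-box CACGTG occurred in 4 windows (12.9%), against 7.15% of all windows. One sterol regulatory element, searched as TCACNCCAC on either strand, was found, in the window of Hmgcs1, against 1.24% of all windows. A match is a description of these letters and no measure of binding. Windows of Acaca, Acat2 and Elovl6 held no CCAAT.

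The 150 bases before the start site are shown for 4 genes that read lowest in the array labelled MEKi 1 (Fasn, Acss2, Lss, Elovl6) and for Idi1 and Nsdhl, which read lowest in MEKi 2, to set promoters of both patterns of expression side by side. Hmgcs1 is shown for its sterol regulatory element, and its own values lie near the floor. They run 5′ to 3′ in the direction of the gene. Capitals mark each CCAAT or ATTGG and, in Hmgcs1, the sterol regulatory element.
Fasn, chr11:120824548-120824697, minus strand: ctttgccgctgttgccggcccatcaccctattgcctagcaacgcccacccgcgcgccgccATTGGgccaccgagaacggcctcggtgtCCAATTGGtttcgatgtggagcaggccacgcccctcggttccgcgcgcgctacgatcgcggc
Acss2, chr2:155517893-155518042, plus strand: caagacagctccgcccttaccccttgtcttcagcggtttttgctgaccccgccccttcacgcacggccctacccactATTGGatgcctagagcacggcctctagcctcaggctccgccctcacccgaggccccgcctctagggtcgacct
Lss, chr10:76531455-76531604, plus strand: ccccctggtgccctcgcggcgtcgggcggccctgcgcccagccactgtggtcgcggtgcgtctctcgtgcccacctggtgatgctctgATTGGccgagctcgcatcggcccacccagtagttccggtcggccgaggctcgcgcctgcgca
Elovl6, chr3:129532236-129532385, plus strand: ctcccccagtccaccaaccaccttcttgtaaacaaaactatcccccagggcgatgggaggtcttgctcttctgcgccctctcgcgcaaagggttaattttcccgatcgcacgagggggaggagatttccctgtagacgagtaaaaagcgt
Idi1, chr13:8885456-8885605, plus strand: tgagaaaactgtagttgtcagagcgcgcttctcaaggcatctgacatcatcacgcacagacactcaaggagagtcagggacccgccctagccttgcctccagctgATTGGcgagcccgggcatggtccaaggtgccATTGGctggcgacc
Nsdhl, chrX:72918371-72918520, plus strand: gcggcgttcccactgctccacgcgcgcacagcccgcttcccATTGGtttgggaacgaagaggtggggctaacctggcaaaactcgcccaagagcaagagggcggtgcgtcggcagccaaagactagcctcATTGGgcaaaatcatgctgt
Hmgcs1, chr13:119690201-119690350, plus strand: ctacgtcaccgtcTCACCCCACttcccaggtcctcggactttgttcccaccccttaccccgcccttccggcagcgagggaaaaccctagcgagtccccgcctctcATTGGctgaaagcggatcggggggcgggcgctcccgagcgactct

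In Fasn a forward and a reverse match overlap, in the run CCAATTGG. The single sterol regulatory element of Hmgcs1 lies at positions −137 to −129 from the start site. Of the 13 genes that read lowest in MEKi 1, 10 have a window and 8 of these hold a CCAAT box, and of the 9 that read lowest in MEKi 2, 8 have a window and 8 hold one, Hmgcs1 with its values near the floor among them. The box was thus present in both sets of genes, and its absence from the Elovl6 window says only that these letters are not there.

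By label, the measured genes had mostly lower means in the arrays labelled MEKi, and none passed the test. The log2 fold change of MEKi over vehicle was below 0 for 21 of 26 genes and above 0 for 5. Over all 17097 genes it was below 0 for 8168. Among the 26 genes it ran from −0.94 (Fasn) to 0.27 (Ggps1), with a median of −0.24 against 0.01 over all genes. In limma's test over all tested probe sets, two-sided with Benjamini-Hochberg adjustment, 0 of 26 genes were called, where a call took an adjusted p under 0.1 together with an unadjusted p under 0.05 and more than 1.5-fold. The background was also 0 of 45037 probe sets (0.0%), and the adjusted p was 1 for each of the 26 genes. At an unadjusted p under 0.05 stood 1 of 26 genes, Fasn, against 210 of all 17097 genes and 406 of 45037 probe sets (0.901%). With 2 arrays on each side an exact two-sided permutation test cannot go below a p of 0.333.

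For 8 of 26 genes both arrays labelled MEKi read below both labelled vehicle, against 10.2% of all genes. These were Mvd, Cyp51, Msmo1, Ebp and Sc5d of the sterol route, and Acly, Acaca and Fasn of the fatty acid route. For 3 genes, Mvk, Ggps1 and Hsd17b7, both arrays labelled MEKi read above both labelled vehicle, against 11.0% of all genes. Of 21 further probe sets of the 26 genes, 17 had the same sign by label as the brightest, and Srebf2, Ggps1, Msmo1 and Acaca each had one of the opposite sign. Centring on 10 reference genes moved the median of all probe sets by −0.12, and each fold change by that same amount. The genes below and above then numbered 12 and 1, against 17.0% and 3.15% of all genes. After this common shift 24 of 26 fold changes were below 0. The split rested in part on the array labelled MEKi 1, and without it 15 of 26 fold changes were below 0 and 11 above. Shares over all genes are not given for the sign counts after centring or without that array.

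**Figure D1:**
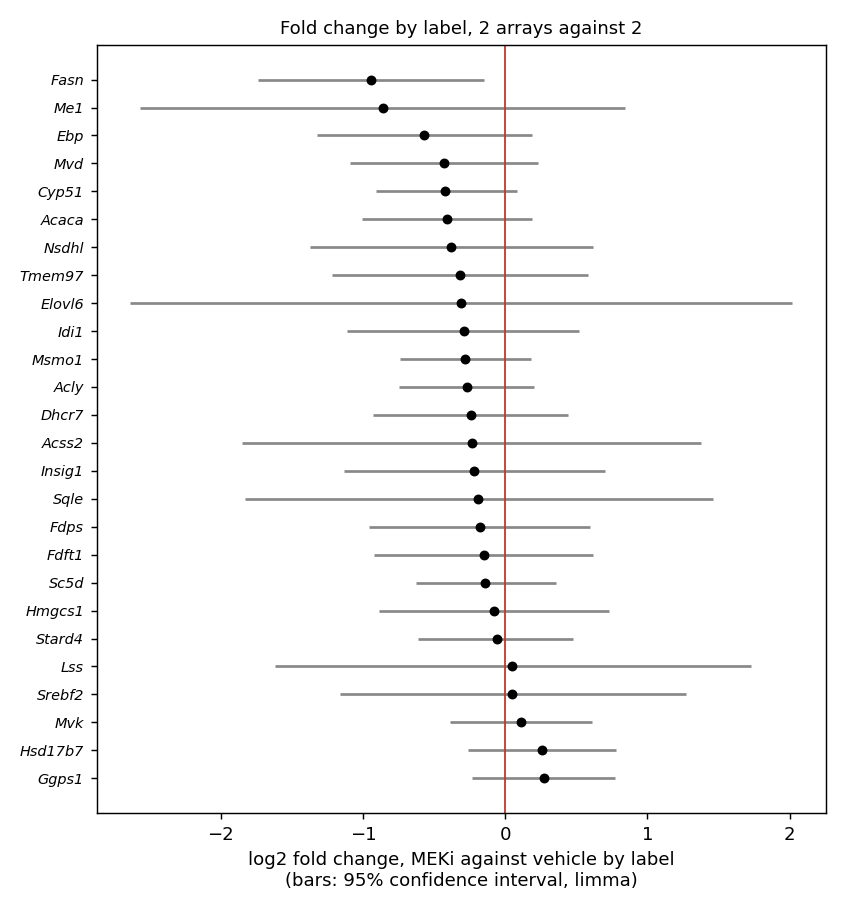
Log2 fold change of each of the 26 measured genes, MEKi against vehicle by label, with 2 arrays on each side; points are limma's estimates and bars their 95% confidence intervals, ordered from the lowest. The interval of Fasn, from −1.74 to −0.15, lies below 0, and every other interval spans 0, Elovl6 being the widest, from −2.64 to 2.02.

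The plot of fold changes shows 1 interval that leaves out 0 and 25 that do not. The interval of Fasn ran from −1.74 to −0.15, whereas that of Elovl6, whose arrays labelled MEKi differed by 2.04, ran from −2.64 to 2.02. Narrow intervals that span 0, such as −0.39 to 0.61 for Mvk, came from genes that varied little over the 4 arrays.

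**Figure D2:**
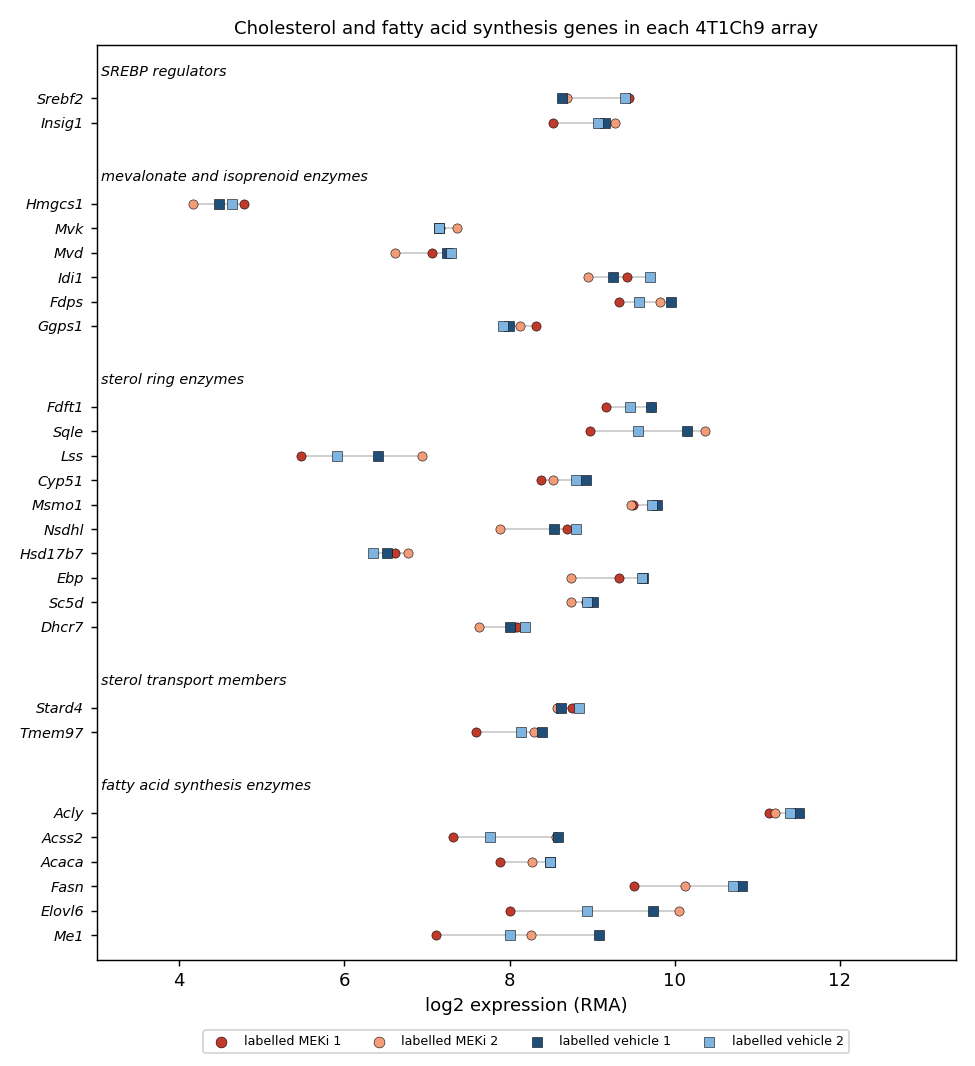
Log2 expression (RMA) of the 26 measured genes grouped by role, with a point for every array (circles, labelled MEKi; squares, labelled vehicle). Fasn reads 9.51 and 10.12 in the arrays labelled MEKi and 10.81 and 10.71 in those labelled vehicle, while Elovl6 and Sqle have their lowest and their highest value in the arrays labelled MEKi.

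The plot of values by array shows genes whose arrays lay apart by label beside genes whose arrays did not. Points can be compared between arrays for 1 gene and not between genes, since probe sets differ in brightness. The median gene ranged over 0.65 between its lowest and highest array, from 0.21 in Mvk to 2.04 in Elovl6. A range of over 2-fold was seen in 6 of 26 genes (Sqle, Lss, Acss2, Fasn, Elovl6 and Me1), against 25.4% of all genes, and one of over 1.5-fold in 16 of 26, against 46.4%.

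Srebf2 encodes SREBP-2, the factor that turns on sterol synthesis. Srebf2 read 9.45 (MEKi 1), 8.69 (MEKi 2), 8.63 (vehicle 1) and 9.40 (vehicle 2). It was high in one array of each label and low in the other, so that its difference by label was 0.05 (SE 0.42), with a sign that turned to −0.06 after centring on reference genes. Its second probe set had the same high and low arrays, at 8.34, 7.77, 7.95 and 8.51 in the same order, but a mean by label of the opposite sign. The arrays with the high values were those with high lymphocyte genes: the summed level of 9 B cell markers was 14.51 and 14.08 (log2) in MEKi 1 and vehicle 2 against 8.57 and 9.23 in MEKi 2 and vehicle 1, and that of 9 T cell markers 13.29 and 13.26 against 8.62 and 9.51. The summed level of 5 markers of lymph node stroma was 13.57 and 13.30 in the first pair of arrays and 6.47 and 7.32 in the second. Their part in the Srebf2 values was not tested. In whole tumors, fewer cells of a type and less RNA per cell cannot be told apart.

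Insig1, which holds SREBP in the endoplasmic reticulum and is itself a target of it, had another order. It read 8.52 (MEKi 1), 9.28 (MEKi 2), 9.16 (vehicle 1) and 9.07 (vehicle 2). MEKi 1 stood below the other 3 arrays, which lay close together, and the difference by label was −0.22 (SE 0.32).

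Of the early enzymes of the mevalonate route, Mvd had a gap between the labels of more than the last digit shown. Hmgcs1, which makes HMG-CoA, read 4.79, 4.17, 4.48 and 4.64 in MEKi 1, MEKi 2, vehicle 1 and vehicle 2, close to the floor of the array for its single probe set, so that its order carries little. Mvk, the mevalonate kinase, read 7.16, 7.36, 7.15 and 7.15. Its arrays labelled MEKi were above those labelled vehicle by as little as the last digit shown, with a difference of 0.11 (SE 0.17) that became −0.01 after centring. Mvd, which makes isopentenyl pyrophosphate from mevalonate pyrophosphate, read 7.06 and 6.61 in the arrays labelled MEKi and 7.24 and 7.29 in those labelled vehicle. Its groups did not overlap (log2 fold change −0.43, SE 0.23), and its second probe set gave 5.73 and 5.43 against 5.92 and 6.04.

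Idi1, Fdps and Ggps1, which shape the isoprenoid units, went different ways. Idi1, the isomerase that makes the allylic unit, read 9.42 (MEKi 1), 8.95 (MEKi 2), 9.25 (vehicle 1) and 9.70 (vehicle 2). Fdps, which joins the units into farnesyl pyrophosphate, read 9.33, 9.82, 9.95 and 9.57 in the same order. Idi1 was thus lowest in MEKi 2 and Fdps lowest in MEKi 1, and for both the groups overlapped (−0.29, SE 0.28, and −0.18, SE 0.27). Ggps1, which extends the chain to the geranylgeranyl group that is attached to small GTPases, read 8.32 and 8.13 in the arrays labelled MEKi and 7.99 and 7.92 in those labelled vehicle. This was the highest fold change of the 26 genes by label (0.27, SE 0.18), and a further probe set of Ggps1 had the opposite sign.

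The enzymes that commit carbon to sterols were lowest in the array labelled MEKi 1. Fdft1, squalene synthase, read 9.17 (MEKi 1), 9.71 (MEKi 2), 9.71 (vehicle 1) and 9.46 (vehicle 2). Sqle, squalene epoxidase and a rate-limiting step of the route, read 8.97, 10.37, 10.15 and 9.56 in that order. Lss, which closes the rings to lanosterol, read 5.48, 6.94, 6.41 and 5.91. Sqle and Lss shared 1 order over the arrays, MEKi 1 below vehicle 2, vehicle 1 and MEKi 2, with ranges of 2.63-fold and 2.75-fold. That is also the order of the MAPK output medians given above, with n of 4 arrays and no test. As one array labelled MEKi was the lowest and the other the highest, the differences by label were −0.19 (SE 0.58) for Sqle and 0.05 (SE 0.59) for Lss, whose sign turned to −0.07 after centring.

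Among the later enzymes of the sterol rings, Cyp51, Msmo1 and Ebp read lower in both arrays labelled MEKi. Cyp51, which strips a methyl group from lanosterol, read 8.38 and 8.53 in the arrays labelled MEKi and 8.93 and 8.81 in those labelled vehicle. The arrays of each label lay within 0.15 of each other and the log2 fold change was −0.42 (SE 0.17, limma, unadjusted p = 0.0795, adjusted p = 1). Its second probe set had groups that overlapped, at 7.07 and 6.78 against 6.64 and 7.26. Msmo1, the methylsterol oxidase of the next steps, read 9.49 and 9.47 in the arrays labelled MEKi and 9.78 and 9.73 in those labelled vehicle. Its arrays of 1 label agreed closely, and its log2 fold change was −0.28 (SE 0.16), but a second probe set near the floor had the opposite sign. Ebp, the isomerase that shifts a double bond of the sterol ring, read 9.33 and 8.75 in the arrays labelled MEKi and 9.61 and 9.60 in those labelled vehicle (−0.57, SE 0.27, limma, unadjusted p = 0.105, adjusted p = 1). This was the lowest fold change of the sterol enzymes, and MEKi 2 lay further below the arrays labelled vehicle than MEKi 1.

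Nsdhl and Hsd17b7, which complete the removal of methyl groups, and Sc5d and Dhcr7, which finish the double bonds of cholesterol, did not form 1 pattern. Nsdhl read 8.69 (MEKi 1), 7.89 (MEKi 2), 8.54 (vehicle 1) and 8.80 (vehicle 2). Dhcr7 read 8.09, 7.63, 8.01 and 8.19 in that order. In both, MEKi 2 stood below the other 3 arrays, and the differences by label were −0.38 (SE 0.35) and −0.24 (SE 0.24). Hsd17b7 read 6.61 and 6.77 in the arrays labelled MEKi and 6.52 and 6.35 in those labelled vehicle (0.26, SE 0.18). Sc5d read 8.93 and 8.75 in the arrays labelled MEKi and 9.01 and 8.94 in those labelled vehicle (−0.14, SE 0.17). The Sc5d groups were apart by the last digit shown, and its second probe set had groups that overlapped, at 8.12 and 8.01 against 8.04 and 8.36.

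Over the 16 measured enzymes of the mevalonate and sterol routes, 12 fold changes by label were below 0 and 4 above. Over all 17097 genes 8168 were below 0, and the median of the 16 enzymes was −0.18. The arrays gave medians of 8.54 (MEKi 1), 8.33 (MEKi 2), 8.73 (vehicle 1) and 8.80 (vehicle 2). The lowest array was MEKi 2 for 8 of the 16 enzymes, against 27.2% of all genes, MEKi 1 for 5 (30%), vehicle 2 for 3 (16.7%) and vehicle 1 for 0 (26.1%). After centring it was MEKi 2 for 10, against 50.6% of all genes, MEKi 1 for 4 (22.7%) and vehicle 1 for 2 (21.7%).

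Of the sterol transport genes, Stard4, a soluble carrier of cholesterol between membranes, read 8.76, 8.57, 8.62 and 8.84 in MEKi 1, MEKi 2, vehicle 1 and vehicle 2. Tmem97, a membrane protein tied to cholesterol traffic, read 7.59, 8.30, 8.39 and 8.14. On its brightest probe set Stard4 varied by a range of 1.21-fold over the arrays, with a difference by label of −0.06 (SE 0.19). Its second probe set had groups that lay apart, at 6.06 and 6.10 (MEKi) against 6.52 in both arrays labelled vehicle (−0.45). On its dimmest probe set the groups overlapped, at 5.31 and 5.89 against 6.05 and 5.30 (−0.07). Tmem97 was lower in MEKi 1 than in the other 3 arrays (−0.32, SE 0.32).

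The enzymes of fatty acid synthesis were lowest in the array labelled MEKi 1, with the exception of Acly after centring. All 6 measured enzymes had their lowest value there, against 30% of all genes, and 5 of 6 had their highest value in vehicle 1, against 20.1% of all genes. After centring on reference genes MEKi 1 was lowest for 5 of 6 (22.7% of all genes), and vehicle 1 was highest for 2 and vehicle 2 for 3 (17.4% and 43.0%). Their median read 7.95 (MEKi 1), 9.30 (MEKi 2), 9.41 (vehicle 1) and 8.71 (vehicle 2). The array labelled MEKi 2 was therefore above vehicle 2 in this median, and the median fold change by label was −0.36. Without the array labelled MEKi 1 this median was −0.23, and without MEKi 2 it was −1.05, without vehicle 1 −0.27 and without vehicle 2 −0.68.

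Fasn, the fatty acid synthase that makes palmitate (probe set 1423828_PM_at), had the lowest fold change by label of the 26 genes. It read 9.51 (MEKi 1), 10.12 (MEKi 2), 10.81 (vehicle 1) and 10.71 (vehicle 2). The arrays labelled vehicle agreed within 0.10, and both arrays labelled MEKi lay below them. The log2 fold change was −0.94 (SE 0.28, limma, unadjusted p = 0.0305, adjusted p = 1), between −1.25 and −0.64 when any 1 array was left out. Acaca, the carboxylase that makes malonyl-CoA for Fasn, read 7.89 and 8.27 in the arrays labelled MEKi and 8.49 in both labelled vehicle (−0.41, SE 0.21). A second Acaca probe set, near the floor, had the opposite sign. Acly, which splits citrate into acetyl-CoA, read 11.14 and 11.22 in the arrays labelled MEKi and 11.50 and 11.40 in those labelled vehicle (−0.27, SE 0.17). On their brightest probe sets these 3 steps from citrate to palmitate thus had groups that did not overlap, with gaps that were small for Acly. The second Acly probe set had groups that overlapped, at 9.07 and 9.27 in the arrays labelled MEKi against 9.51 and 9.12.

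Elovl6, Acss2 and Me1 varied more between arrays of 1 label than between labels. Elovl6, which lengthens palmitate (probe set 1417404_PM_at), read 8.01 (MEKi 1), 10.05 (MEKi 2), 9.74 (vehicle 1) and 8.94 (vehicle 2). This was a range of 4.10-fold, the widest of the 26 genes, and the second Elovl6 probe set had the same order at 5.19, 7.74, 7.41 and 5.93. Its order was that of Sqle and Lss, with a difference by label of −0.31 (SE 0.82). Acss2, which makes acetyl-CoA from acetate, read 7.32, 8.56, 8.59 and 7.76, and its second probe set 7.47, 8.61, 8.34 and 7.80. Acss2 was low in MEKi 1 and vehicle 2 and high in the other two, on both probe sets. Me1, the malic enzyme that supplies NADPH, read 7.11, 8.26, 9.08 and 8.01, and its second probe set 6.65, 7.48, 7.99 and 7.47. Me1 was highest in vehicle 1 and lowest in MEKi 1 by both probe sets, and MEKi 2 lay beside vehicle 2 (−0.86, SE 0.60).

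**Figure D3:**
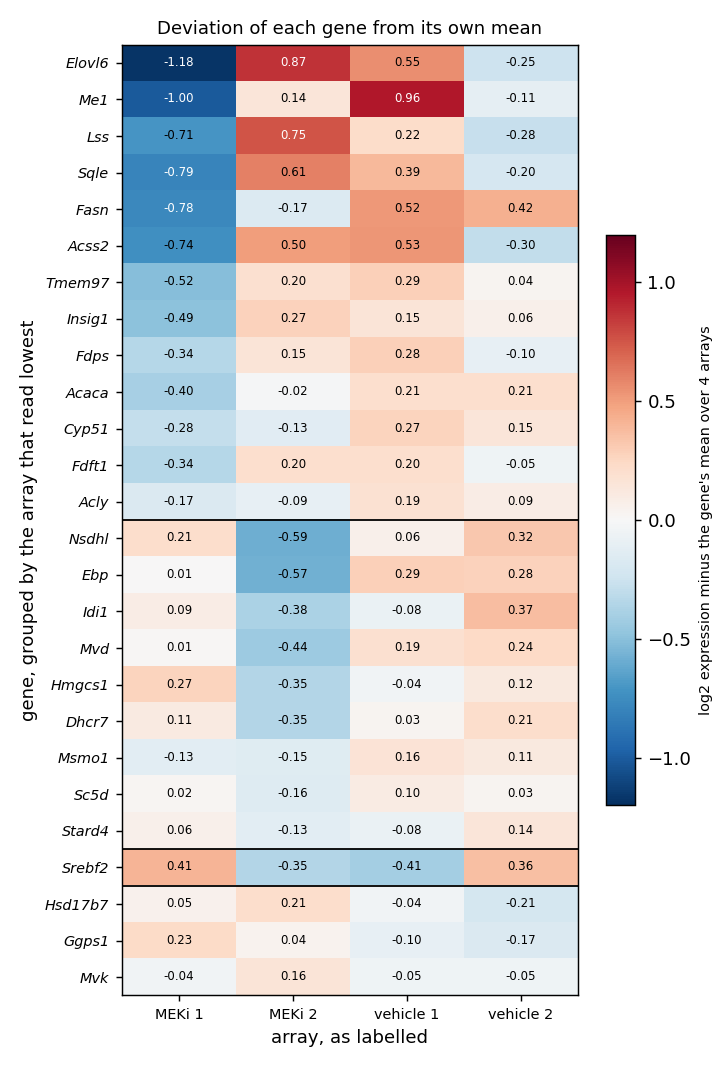
Deviation of each of the 26 measured genes from its own mean over the 4 arrays, in log2 units, with 1 column per array and the genes grouped by the array in which they read lowest (black lines); red is above and blue below the mean. The upper block holds the 13 genes lowest in the array labelled MEKi 1, among them all 6 fatty acid enzymes, and the next block the 9 genes lowest in MEKi 2.

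The map of deviations sorts the genes into those low in MEKi 1 and those low in MEKi 2. The lowest array was MEKi 1 for 13 of 26 genes (background 30% of all genes), MEKi 2 for 9 (27.2%), vehicle 1 for 1 (26.1%) and vehicle 2 for 3 (16.7%). The highest was vehicle 1 for 12 (20.1%), MEKi 2 for 6 (34.8%), vehicle 2 for 5 (20.2%) and MEKi 1 for 3 (24.9%). The first block held all 6 fatty acid enzymes with Fdps, Fdft1, Sqle, Lss, Cyp51, Insig1 and Tmem97, and the second held Hmgcs1, Mvd, Idi1, Msmo1, Nsdhl, Ebp, Sc5d, Dhcr7 and Stard4. After centring, MEKi 1 was lowest for 11 of 26 genes (22.7% of all genes), MEKi 2 for 13 (50.6%) and vehicle 1 for 2 (21.7%), with Cyp51 and Acly passing from the first block to the second. The blocks were read from these same values and carry no test.

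Single arrays were also set against each other, without a test since each side holds 1 array. MEKi 1 against vehicle 2, the pair most alike over all probe sets, had 4 of 26 genes over 1.5-fold lower, against 4.14% of all genes, and 0 over 1.5-fold higher, against 1.74%. These 4 were fatty acid enzymes, and the median difference of the 6 enzymes was −0.75, against −0.24 for the 16 sterol enzymes and −0.03 for all genes. After centring these medians were −0.83, −0.31 and −0.11. MEKi 2 against vehicle 1, the other pair most alike, had 5 genes over 1.5-fold lower (9.26% of all genes) and 0 higher (7.69%). There the median difference was −0.25 for the fatty acid enzymes and −0.29 for the sterol enzymes, against 0.05 for all genes, and after centring −0.41, −0.45 and −0.11. In both of these pairs the array labelled MEKi was thus the lower one for most of the 26 genes. That array was the higher one for 5 of the 26 in the first pair and 8 in the second. Over all 17097 genes it was the higher one for 7686 in the first pair and 9563 in the second.

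Over the 26 genes, the arrays labelled MEKi differed from each other by more than either of these pairs did, and those labelled vehicle by less. The median absolute difference of these genes came to 0.51 for the MEKi pair and 0.18 for the vehicle pair, against 0.28 in each of the pairs most alike. Over all genes the vehicle pair differed by more than both. There the values were 0.36 (MEKi pair), 0.28 (vehicle pair), 0.15 (MEKi 1 with vehicle 2) and 0.24 (MEKi 2 with vehicle 1). MEKi 1 against MEKi 2 had 8 genes over 1.5-fold lower (17.9% of all genes) and 3 higher (16.1%), with a median difference of −0.88 for the fatty acid enzymes and 0.10 for the sterol enzymes (−0.62 and 0.37 after centring, against 0.23 for all genes). Vehicle 1 against vehicle 2 had 4 genes over 1.5-fold higher (12.7%) and 1 lower (12.3%), with medians of 0.45 for the fatty acid enzymes and 0.06 for the sterol enzymes. Centring took these to 0.27 and −0.12, against −0.20 for all genes. MEKi 1 against vehicle 1 had 10 lower (15.7%) and 1 higher (13.0%), and MEKi 2 against vehicle 2 had 5 lower (16.0%) and 4 higher (15.6%). The fatty acid median of MEKi 2 against vehicle 2 was 0.03, and −0.31 after centring, which moved all genes by a like amount, to −0.33.

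Another 52 genes of lipid synthesis, uptake and control were listed beside these, and 41 were measured. By label 0 of 41 were called (limma, adjusted p = 1 for each). Of their fold changes 28 were below 0, against 8168 of all 17097 genes, and 13 above, with a median of −0.15. Both arrays labelled MEKi read below both labelled vehicle for 8 of 41 genes, against 10.2% of all genes, and above for 1, against 11.0%. That 1 was Pggt1b (8.31 and 8.37 against 7.98 and 8.01), a subunit of the enzyme that attaches geranylgeranyl groups. At an unadjusted p under 0.05 stood 2 of 41, Thrsp and Mlxipl, against 210 of all 17097 genes and 0.901% of all tested probe sets.

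Thrsp, a lipogenic protein of fat, liver and lactating mammary cells, read 6.77 (MEKi 1), 4.68 (MEKi 2), 9.97 (vehicle 1) and 10.03 (vehicle 2). Its log2 fold change of −4.28 (SE 0.78, limma, unadjusted p = 0.00653, adjusted p = 1) was the lowest of all 17097 genes, and the arrays labelled vehicle differed by little. Mlxipl, the carbohydrate-responsive factor that acts with SREBP on lipogenic genes, read 4.39 and 4.95 in the arrays labelled MEKi and 5.38 and 5.53 in those labelled vehicle (−0.78, SE 0.26, limma, unadjusted p = 0.0447, adjusted p = 1). Its value in MEKi 1 lay little above the floor of the array. Scd1, the desaturase that makes oleate, read 12.34 (MEKi 1), 9.71 (MEKi 2), 12.92 (vehicle 1) and 12.69 (vehicle 2). Thrsp and Scd1 were lowest in MEKi 2, unlike the 6 fatty acid enzymes, which were lowest in MEKi 1.

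Several other listed genes had orders over the 4 arrays seen above. Acsl3, which activates fatty acids, read 8.26, 9.66, 9.04 and 8.54 in MEKi 1, MEKi 2, vehicle 1 and vehicle 2, the order of Elovl6 and Sqle. Idh1, which makes NADPH, read 10.48, 11.61, 12.04 and 11.08, the order of Acss2 and Me1. Abcg1, which exports cholesterol, read 10.75, 8.96, 9.66 and 10.37, and Mylip, which degrades the LDL receptor, read 10.82, 9.51, 9.72 and 10.40. Both are targets of the sterol-sensing LXR receptors, and both were high in MEKi 1 and vehicle 2, as was Srebf2. Lbr, a sterol reductase of the nuclear envelope, had the same high arrays at 11.43, 10.78, 10.76 and 11.36. Of the SREBP regulators, the ubiquitin ligase Rnf139 (10.59, 11.50, 11.10, 10.67) and the Insig1 relative Insig2 (9.32, 10.10, 10.03, 9.30) were high in MEKi 2 and vehicle 1, and Nr1h3, which encodes an LXR receptor, was high in the other two (7.18, 6.35, 6.55, 7.25).

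Genes of sterol exchange and of isoprenoid use did not all share 1 order, though some orders recurred among them. Scarb1, the receptor that takes up cholesterol from HDL, read 8.51 (MEKi 1), 9.46 (MEKi 2), 9.27 (vehicle 1) and 8.66 (vehicle 2), and the oxysterol-binding protein Osbp read 9.81, 9.11, 9.47 and 9.89 in that order. Tm7sf2, a sterol reductase, read between 6.32 (MEKi 2) and 6.79 (vehicle 1). Scarb1 was thus high where Osbp was low, and Tm7sf2 had a range of 0.47. Fnta and Fntb, the subunits of farnesyltransferase, read 10.31, 10.23, 10.30 and 10.51, and 6.73, 7.38, 6.94 and 6.74. Fnta thus had the order of Osbp, and Fntb that of Scarb1, which is also the order of Sqle and Lss. Dhdds, which makes the dolichol chain, read 7.85, 7.57, 7.87 and 8.01, so that of the 4 measured genes of isoprenoid use 1, Fntb, ranged over more than 1.5-fold.

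**Figure D4:**
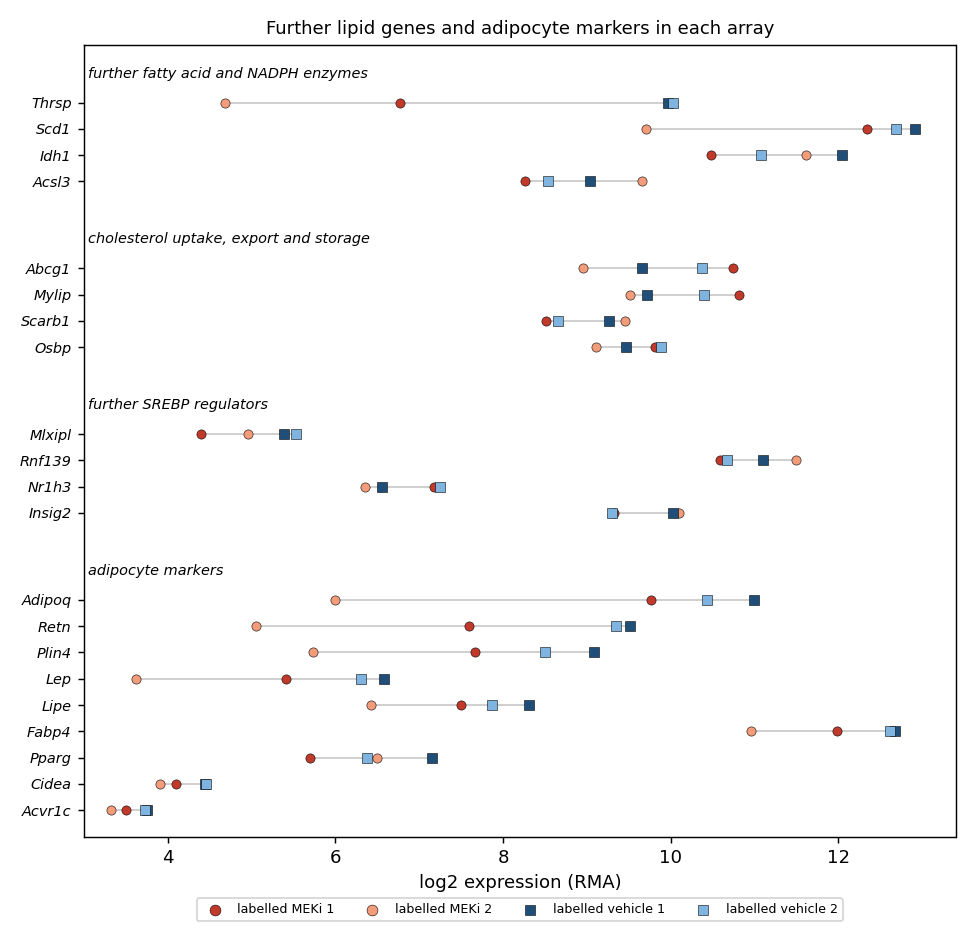
Log2 expression (RMA) in each array of 12 further lipid genes and of the 9 measured adipocyte markers (circles, labelled MEKi; squares, labelled vehicle). Thrsp, at 6.77 and 4.68 against 9.97 and 10.03, and Adipoq, at 9.77 and 5.99 against 11.00 and 10.44, both lie lowest in MEKi 2 and are higher in both arrays labelled vehicle than in either labelled MEKi.

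Markers of fat cells mostly read lower in the arrays labelled MEKi, with 0 of 9 called (limma, adjusted p = 1 for each). The plot of further lipid genes and adipocyte markers shows that 8 of 9 measured adipocyte markers read lower in both arrays labelled MEKi than in both labelled vehicle, against 10.2% of all genes. Adipoq, the adipocyte hormone adiponectin, read 9.77 and 5.99 against 11.00 and 10.44, and Retn, resistin, 7.59 and 5.05 against 9.51 and 9.35. The log2 of the summed level of the 9 markers was 12.46 (MEKi 1), 11.21 (MEKi 2), 13.35 (vehicle 1) and 13.15 (vehicle 2). Cidea and Acvr1c stayed near the floor in all 4 arrays, and Lep was near it in MEKi 2 at 3.62. Thrsp, Scd1 and the adipocyte markers other than Pparg were lowest in MEKi 2, whereas Fasn and the other fatty acid enzymes were higher in MEKi 2 than in MEKi 1 (Acly only before centring). The part of fat cells in any of these values was not tested.

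Tumor epithelial and macrophage markers were not highest in the same arrays by every measure. The summed level of 10 tumor epithelial markers was 12.21 (MEKi 1), 13.22 (MEKi 2), 14.14 (vehicle 1) and 13.20 (vehicle 2), while their median was 8.04, 6.46, 9.08 and 8.37. The sum was lowest in MEKi 1 and the median in MEKi 2, with 4 of 10 markers lowest in MEKi 1 and 6 in MEKi 2, and 6 highest in vehicle 2 and 3 in vehicle 1. The summed level of 10 macrophage markers was 13.85, 14.32, 15.06 and 14.34, with 9 of 10 lowest in MEKi 1 (30% of all genes) and 10 of 10 highest in vehicle 1 (20.1%). By label, all 10 tumor epithelial and all 10 macrophage markers had fold changes below 0, against 8168 of all 17097 genes. Their medians were −1.12 and −0.5. Both arrays labelled MEKi read below both labelled vehicle for 5 of the tumor epithelial markers, against 10.2% of all genes. The same held for 3 of the macrophage markers. In limma's test 0 of either list were called.

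Neutrophil markers were mostly higher in the arrays labelled MEKi. S100a8, a calcium-binding protein abundant in neutrophils, read 9.99 and 11.10 in the arrays labelled MEKi and 6.17 and 7.70 in those labelled vehicle, and its partner S100a9 read 10.29 and 11.87 against 7.09 and 7.92. Of 6 measured markers 4 read higher in both arrays labelled MEKi, against 11.0% of all genes, with a median fold change of 2.33 for the list and 0 called (limma, adjusted p = 1 for each). Among these 4, Camp in MEKi 2, at 4.71, lay close to vehicle 2, at 4.57. Ltf had overlapping groups and the opposite sign (8.93 and 6.58 against 8.85 and 9.16, log2 fold change −1.25). Mpo overlapped too (5.45 and 4.04 against 4.19 and 4.07). The summed level was 11.78 (MEKi 1), 12.59 (MEKi 2), 9.51 (vehicle 1) and 10.11 (vehicle 2).

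As lists, the others were dim or had small differences by label. Sebaceous gland markers, of which 3 of 6 were measured, had medians between 4.00 and 4.14, and skeletal muscle markers between 3.89 and 4.19, near the floor in all 4 arrays. The summed level of 7 markers of secretory mammary epithelium ran from 10.07 to 10.21, and that of 5 endothelial markers from 10.44 to 10.82. Single mammary markers varied more than their sum. Csn1s1 read 3.99 (MEKi 1), 7.59 (MEKi 2), 4.51 (vehicle 1) and 4.43 (vehicle 2), a range of 12.1-fold, and Btn1a1 ranged over 2.79-fold. Of 11 proliferation genes, 6 ranged over more than 1.5-fold (46.4% of all genes), with a median range of 0.63, and 6 were lowest in MEKi 1 (30% of all genes), and their summed level ran from 14.00 to 14.21. The part of these cell types in the values of the cholesterol and fatty acid genes was not tested.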

How the data were processed

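The authors deposited log2 expression values, 1 per probe set and array, made with RMA per the labels, and quantile normalized with the AFFY package in R per the methods. Versions of RMA and AFFY are not given in the sources used here, and neither is a filter. After 104 control probe sets were dropped from 45141 rows, tests covered 45037, of which 28898 have 1 symbol in the platform annotation, 551 list more than that and 15588 are unnamed here. Entrez identifiers matched 28689 of these to the RefSeq gene table (GRCm38.p6), and 0 symbols changed. The brightest probe set by mean stood for each of 17097 genes. The number of arrays limits the precision.

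Arrays were grouped by their labels and fitted with limma 3.58.1 (lmFit and eBayes) in R 4.3.3, with Benjamini-Hochberg adjustment over all tested probe sets. Calls required more than 1.5-fold, p below 0.05 and an adjusted p below 0.1. The fit was tested on simulated data. By the rule for names, all 30 listed genes and, of each further list, any called gene and the 4 with the highest range over the arrays could be named. Plin4 and most genes that mark other cells, though within the rule, are given in counts, sums or medians. Pparg, Cidea, Acvr1c, Ltf and Mpo, outside it, were named after their values were seen. The members and lists were chosen with earlier results of these data known. Alternative settings tried were a stricter adjusted p (0.05), an intensity trend, leaving out the dimmest probe sets, centring on reference genes, averaging a gene's probe sets, the replicate number as a block, and each array left out in turn. Promoter windows came from RefSeq. Python 3.11.15 made the tables (pandas 2.3.3, numpy 2.4.6) and the figures (matplotlib 3.10.9).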

Additional observations from a re-analysis of the deposited data

How the results depend on the processing

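Under none of the 11 alternative settings was a probe set, a member of the pathway or a further lipid gene called, and the lowest adjusted p over all probe sets was 0.881, without MEKi replicate 1. Probe sets at an unadjusted p under 0.05 numbered 406 in the fit reported, 683 with an intensity trend, 243 without the dimmest probe sets, 405 after centring and between 80 and 2027 with 1 array left out. Centring on reference genes moved the median fold change of the 26 genes from −0.24 to −0.36, and that of the sterol enzymes from −0.18 to −0.30, the centres subtracted being −0.07 (MEKi 1), 0.19 (MEKi 2), 0.03 (vehicle 1) and −0.15 (vehicle 2). It turned Srebf2 to −0.06, Mvk to −0.01 and Lss to −0.07, and left 1 gene with both arrays labelled MEKi above. The medians between single arrays became 0.11 (MEKi 1 minus MEKi 2), −0.23 (MEKi 1 minus vehicle 1), −0.35 (MEKi 1 minus vehicle 2), −0.33 (MEKi 2 minus vehicle 1), −0.53 (MEKi 2 minus vehicle 2) and −0.10 (vehicle 1 minus vehicle 2), against −0.16, −0.33, −0.27, −0.17, −0.19 and 0.09. With the mean of all probe sets Srebf2 read −0.06, its 2 probe sets having fold changes of 0.05 and −0.18. With 1 array left out, the lone array of a label was assumed to vary like the others, and 12 of 26 genes turned sign at least once: Srebf2 (−0.33 to 0.44), Insig1 (−0.60 to 0.16), Hmgcs1 (−0.39 to 0.23), Fdps (−0.42 to 0.06), Fdft1 (−0.42 to 0.12), Sqle (−0.88 to 0.51), Lss (−0.68 to 0.78), Nsdhl (−0.78 to 0.03), Stard4 (−0.18 to 0.05), Tmem97 (−0.67 to 0.03), Acss2 (−0.85 to 0.38) and Elovl6 (−1.33 to 0.71). Medians ran from −0.29 to −0.19 over the 26 genes, from −0.26 to −0.13 over the sterol enzymes and from −1.05 to −0.23 over the fatty acid enzymes, the last without the array labelled MEKi 1. Genes below numbered 12 to 17, against 24.0% to 36.1% of all genes, and genes above 3 to 7, against 23.2% to 38.9%.

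The labels give the same numbers in both groups without saying that they pair arrays. Deviations of same-numbered arrays from their group means correlated at −0.764, so the number was no sign of pairing. With the replicate number as a block 0 probe sets and 0 of the 26 genes were called, with 267 at an unadjusted p under 0.05. The crossed pairing, added after the data were seen, also gave 0 calls, with 1447.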
